A study of Mus musculus with 2 samples.

Results

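The 8 keratin genes described here are 4 that mark the basal layer of stratified and glandular epithelia (Krt5, Krt14, Krt15 and Krt17, the basal set) and 4 that mark simple, luminal epithelium (Krt7, Krt8, Krt18 and Krt19, the luminal set). They were taken by name, though with earlier results of these data known. All 8 were found among the 32285 genes of the count tables, which hold 53 keratin genes. Single cells of the mammary gland were counted with the 10x Genomics 3′ assay in 1 library labelled WT and 1 library labelled Gpm6a deletion, called KO here. Both came from the 4th mammary gland of virgin C57BL/6 females aged 6 to 8 weeks, with 3 littermates of each genotype. Cells were sorted only for the absence of the dye DAPI, which enters dead cells, so that stroma and immune cells are present beside epithelium. The labels do not say whether the 3 mice were pooled, nor which part of Gpm6a was deleted. With 1 library per genotype, a difference between KO and WT compares 2 libraries and has no replicate check. Intervals on levels and ratios cover counting error only, and intervals on shares cover the sampling of cells. None of them covers differences between mice.

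Keratins form the intermediate filaments of epithelial cells. Each filament is built from pairs of an acidic type I keratin and a basic type II keratin, so that a cell needs at least 1 of each. In the mammary gland, Krt5 (type II) with Krt14 (type I) is the classical pair of the outer basal, or myoepithelial, layer, which contracts to eject milk. Krt8 (type II) with Krt18 (type I) is the pair of the inner luminal layer, which holds progenitors that can make milk cells and hormone-sensing cells that carry oestrogen, progesterone and prolactin receptors. Krt15, Krt17 and Krt19 are further type I keratins and Krt7 a further type II keratin.

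In GRCm38 (GENCODE M21) all 8 are protein-coding. Krt15 lies at chr11:100131758-100135928, Krt19 at chr11:100140810-100148665, Krt14 at chr11:100203162-100207548 and Krt17 at chr11:100256217-100261029, all on the minus strand. Krt7 lies at chr15:101411043-101430313 on the plus strand, Krt5 at chr15:101707070-101712898 and Krt8 at chr15:101996698-102004482 on the minus strand, and Krt18 at chr15:102028180-102032027 on the plus strand. Krt18 is thus the type I member whose gene neighbours Krt8 rather than the other type I genes.

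The genes are near copies of each other in places, which matters for reads assigned to 1 of them. The stretch most alike across the 8 codes for the end of the helical rod, the conserved helix termination region. It is shown for the 5 type I genes on the coding strand, 5′ to 3′, from the GENCODE M21 transcripts, 45 coding bases each, with bases that differ from Krt14 in capitals.
Krt14: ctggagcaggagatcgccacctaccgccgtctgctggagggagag
Krt17: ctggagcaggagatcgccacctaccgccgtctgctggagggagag
Krt15: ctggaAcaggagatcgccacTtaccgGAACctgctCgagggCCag
Krt19: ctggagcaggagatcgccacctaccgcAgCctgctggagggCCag
Krt18: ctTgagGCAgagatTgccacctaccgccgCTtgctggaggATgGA

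Krt14 and Krt17 were identical over this stretch, Krt19 differed from Krt14 at 4 of the 45 bases, Krt15 at 9 and Krt18 at 11. In the last 500 bases of the transcript, from which a 3′ assay mostly reads, the longest run that Krt14 shared exactly with another keratin was 71 bases, with Krt17. Krt19 shared 35 bases there with Krt17, Krt15 shared 22 with Krt13, and the other 4 genes shared 14 to 20. The level of Krt14 against Krt17 is therefore the most open to reads that match both. How such reads were counted is not given in the sources used here.

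After filters, 10472 cells of the KO library (median 9521 UMIs per cell; a UMI is 1 counted RNA molecule) and 10523 cells of the WT library (median 11086) were analysed, and 20 barcode sequences occurred in both. Gpm6a had 29 UMIs in the KO library (0.225 CPM, that is per 1000000 UMIs) and 284 in the WT library (1.91 CPM). Classes came from clusters made with no keratin gene and named with no keratin marker. There were 990 basal-like cells in KO and 1525 in WT, 472 and 278 luminal progenitor-like cells, and 1298 and 1014 hormone-sensing luminal-like cells. They are called basal, luminal progenitor and hormone-sensing cells from here on. The basal class joined cluster 2 (768 KO and 1182 WT cells), led by contractile genes such as Cnn1 and Oxtr, and cluster 11 (222 and 343 cells), led by Serpinb11, Gpx2 and Lama1. A cluster with markers of both luminal classes (cluster 6, 468 and 341 cells) stayed unnamed. A keratinocyte-like cluster, the kind of cell that makes up skin and its glands, held 221 cells, all in the WT library.

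Together the 8 genes made up 0.703% of the UMIs of the analysed KO cells and 0.564% of those of the WT cells. Levels are CPM over all UMIs of the class. A 3′ assay tags each molecule once whatever its length, so levels were not divided by transcript length.

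Krt14 and Krt17 were the most abundant basal-set keratins of basal cells in both libraries. Krt14 stood at 3041 CPM (95% exact Poisson interval 3015 to 3067) for KO and at 2483 CPM (2464 to 2502) for WT, with a median of 44 and 30 UMIs per cell. Krt17 stood at 3467 CPM (3439 to 3495) and 2089 CPM (2072 to 2107), with a median of 41 and 23 UMIs per cell. The order of these genes was thus reversed between the libraries, Krt17 being ahead in KO and Krt14 ahead in WT, at 1.14 and 0.841 Krt17 UMIs per Krt14 UMI. Krt5, the type II partner, was lower, at 578 CPM (567 to 590) in KO and 556 CPM (547 to 565) in WT. Krt15 was the least abundant of the set, at 311 CPM (303 to 319) in KO and 201 CPM (195 to 206) in WT, and was seen in 51.7% and 47.1% of basal cells, where Krt5 was seen in 92.2% and 89.9%.

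**Figure D1:**
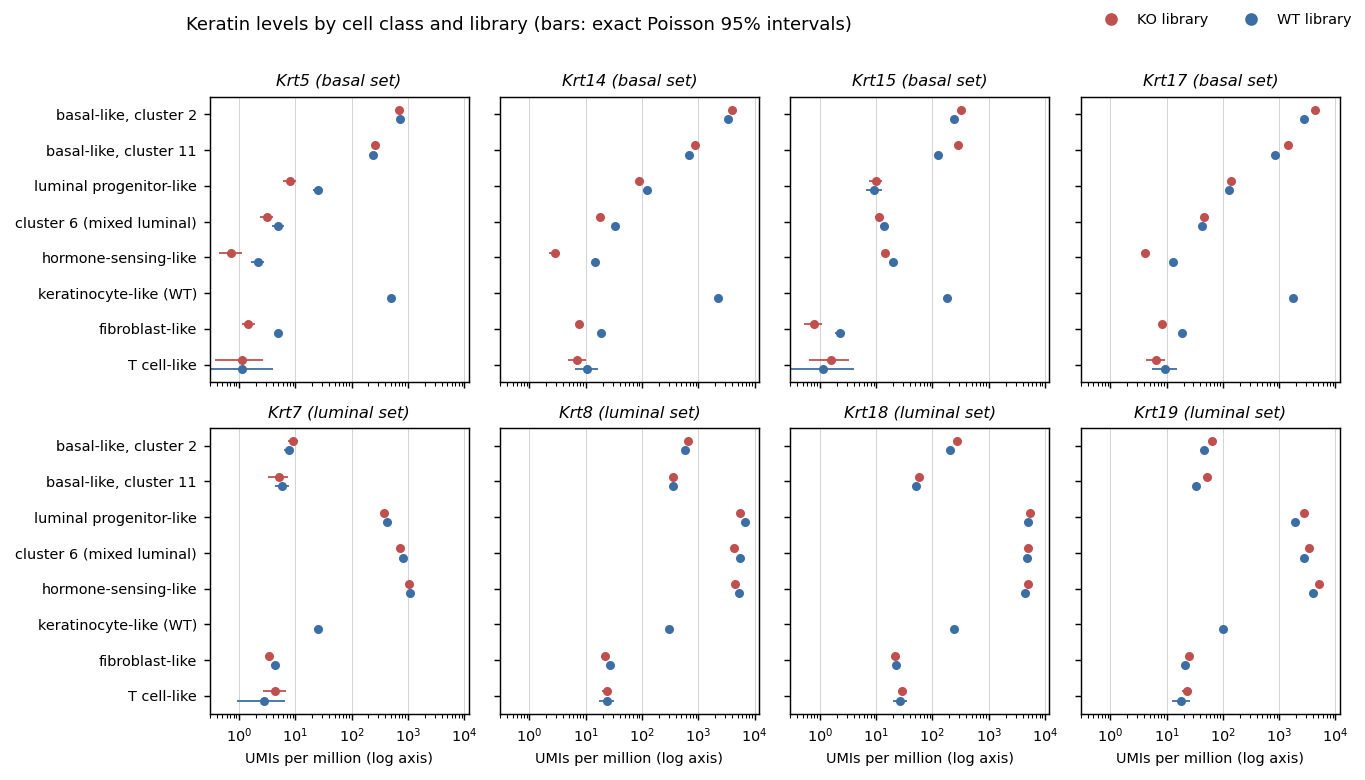
Level of each keratin (CPM, log axis) by class, KO library in red and WT library in blue, 1 library each; points are levels and bars exact Poisson 95% intervals. The basal set is highest in the basal clusters and the WT-only keratinocyte-like cluster, while Krt8 in the 2 basal clusters lies between 354 and 648 CPM.

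Luminal-set keratins were highest in the luminal classes, and their make-up differed between progenitor and hormone-sensing cells. In luminal progenitor cells Krt8 stood at 5545 CPM in KO and 6870 CPM in WT, Krt18 at 5378 and 5012 CPM, Krt19 at 2783 and 1929 CPM and Krt7 at 376 and 424 CPM. In hormone-sensing cells Krt8 stood at 4488 and 5269 CPM, Krt18 at 4959 and 4346 CPM, Krt19 at 5155 and 3980 CPM and Krt7 at 1051 and 1080 CPM. Krt19 and Krt7 were thus higher in hormone-sensing than in progenitor cells of the same library, for both libraries, and Krt8 was lower. The counting intervals of the 2 classes did not overlap for any of these 3 genes in either library. Per UMI of Krt8, Krt7 came to 0.068 in KO and 0.062 in WT progenitor cells and to 0.234 and 0.205 in hormone-sensing cells, and Krt19 to 0.502 and 0.281 against 1.15 and 0.755. Cluster 6, with markers of both classes, lay between them for Krt7 (723 CPM in KO, 822 CPM in WT) and Krt19 (3441 and 2813 CPM), with more UMIs per cell than either (median 31691 in KO and 34605 in WT).

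Krt8 and Krt18 were also found in basal cells, well above the level of cells outside the epithelium. Krt8 stood at 565 CPM (554 to 577) in KO and 503 CPM (495 to 512) in WT basal cells, close to Krt5 of the same cells, and had UMIs in 94.4% and 91.9% of them. After every cell was thinned to 2000 UMIs, Krt8 was seen in 59.9% of KO and 57.6% of WT basal cells, against 5.15% and 5.39% of the named non-epithelial cells. Those non-epithelial cells, 6632 in KO (median 7799.5 UMIs) and 5569 in WT (median 9886 UMIs), served as the reference outside the epithelium, and basal cells had a median of 14944.5 and 13537 UMIs. Krt18 was seen in 33.2% and 24.3% of thinned basal cells, against 5.03% and 4.77%. Krt7 was near the non-epithelial level, with 7.98 and 7.02 CPM in basal cells against 4.35 and 6.83 CPM, and after thinning 1.42% and 1.55% of basal cells had a Krt7 UMI against 1.04% and 1.12%.

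The proportions of the luminal set in basal cells were not those of luminal or of non-epithelial cells in the same library. Basal cells had 0.381 Krt18 UMIs per Krt8 UMI in KO and 0.305 in WT, luminal progenitor cells 0.97 and 0.730, hormone-sensing cells 1.10 and 0.825, and non-epithelial cells 0.980 and 0.754. Krt7 came to 0.014 per Krt8 UMI in basal cells of both libraries, against 0.167 and 0.157 in non-epithelial cells. Krt19 came to 0.107 and 0.082 in basal cells, against 1.03 and 0.674. Per Krt8 UMI, pooled non-epithelial cells were thus nearer to hormone-sensing than to progenitor cells for Krt7 and Krt19, and nearer to progenitor cells for Krt18, while basal cells carried mostly Krt8.

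**Figure D2:**
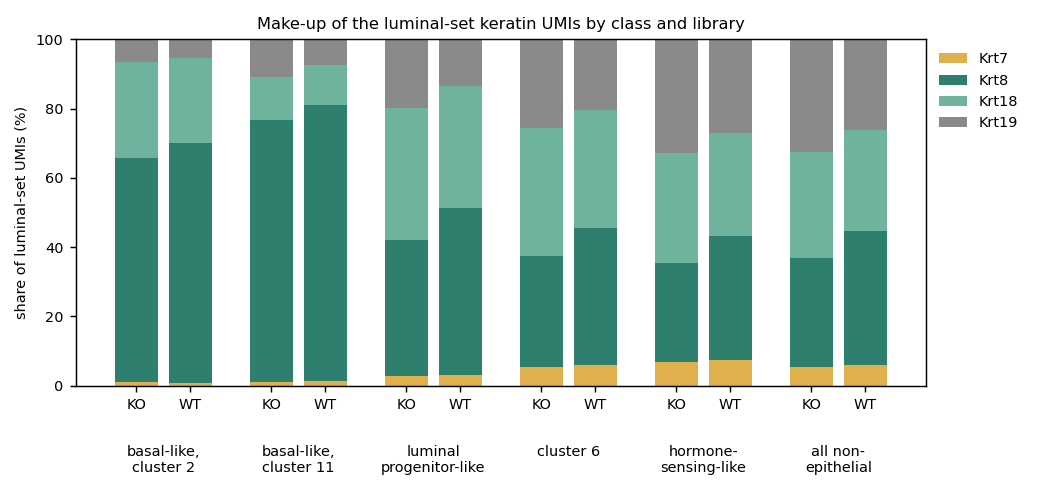
Share of luminal-set UMIs (%) that were Krt7, Krt8, Krt18 or Krt19, by class, for the KO and the WT library (stacked bars, 1 library each, no error drawn). Krt8 makes up most of the luminal-set UMIs in both basal clusters, and the Krt7 and Krt19 parts of the non-epithelial bars are nearer to the hormone-sensing than to the progenitor ones.

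The 2 basal clusters differed in keratin content in both libraries. Cluster 2 held 10211 CPM of the 8 keratins in KO and 7907 CPM in WT, and cluster 11 held 3294 and 2315 CPM. Krt14 stood at 3905 and 3394 CPM in cluster 2 and at 865 and 673 CPM in cluster 11, and Krt5 at 704 and 713 CPM against 262 and 243 CPM. Krt18 was lower in cluster 11 too, at 57.8 and 50.4 CPM against 278 and 206 CPM, while Krt8 differed less, at 357 and 354 CPM against 648 and 579 CPM. Krt15 differed least in KO, at 287 CPM in cluster 11 and 320 CPM in cluster 2, and in WT stood at 124 and 239 CPM. Basal-set genes made up 90.2% and 89.4% of the keratin UMIs in cluster 2 and 85.7% and 80.8% in cluster 11. Cells of cluster 11 had more UMIs in all, with medians of 19859 and 22572 against 13081 and 10882. Since the clusters were drawn from other genes of the same cells, these differences are descriptions.

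Basal-set keratins were low in luminal progenitor cells beside the luminal set, and most Krt14 and Krt5 UMIs came from few of these cells. Krt17 stood at 137 CPM in KO and 131 CPM in WT, Krt14 at 87.3 and 125 CPM, Krt15 at 9.83 and 9.15 CPM and Krt5 at 8.04 and 25.3 CPM. The 5 cells with most Krt14 UMIs held 68.9% of them in KO and 70.9% in WT, and the 5 with most Krt5 held 92.6% and 81.5%. Only 1.91% of KO progenitor cells and 5.76% of WT ones showed any Krt5. Krt17 was more spread in WT, where the top 5 cells held 26.9% of its UMIs, than in KO, where they held 51.6%.

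In hormone-sensing cells Krt15 stood apart from the rest of the basal set. Krt15 was at 14.3 CPM (12.9 to 15.8) in KO and 20.02 CPM (18.3 to 21.9) in WT, against 0.869 and 3.14 CPM in non-epithelial cells of the same libraries, and was seen in 14.8% and 19.4% of hormone-sensing cells. Krt14 was at 2.80 and 14.6 CPM, below the 8.53 and 23.8 CPM of pooled non-epithelial cells, and Krt17 at 4.19 and 12.9 CPM, below 8.46 and 22.2 CPM. Krt5 was at 0.718 and 2.16 CPM, below 1.47 and 6.07 CPM. There were 5.11 Krt15 UMIs per Krt14 UMI in KO and 1.37 in WT hormone-sensing cells, against 0.102 and 0.081 in basal cells and 0.102 and 0.132 in non-epithelial cells. The Krt15 UMIs were not held by a handful of cells, since the top 5 had 18.3% of them in KO and 20.3% in WT. For Krt14 in WT the top 5 cells had 59.8%, with 84 UMIs in 1 cell.

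The WT-only keratinocyte-like cells were rich in basal-set keratins, with Krt14 at 2268 CPM, Krt17 at 1733 CPM, Krt5 at 511 CPM and Krt15 at 185 CPM. Their luminal set was lower, with Krt8 at 307 CPM, Krt18 at 237 CPM, Krt19 at 100.4 CPM and Krt7 at 25.2 CPM. The 5 cells with most UMIs held 68.1% of those of Krt7, 65.5% of Krt19, 41.4% of Krt18 and 35.7% of Krt8. The basal set gave 87.5% of the UMIs of the 8 keratins, against 88.3% in WT basal cells. By cell the classes differed, with Krt5 seen in 47.5% against 89.9% and a median of 2 against 23 Krt17 UMIs. They also differed in Krt79, a keratin of hair follicle and sebaceous duct cells, at 554 CPM against 2.08 CPM in WT basal cells, in Krt6a at 353 against 2.89 CPM, and in the epidermal keratin Krt1 at 53.7 against 0.579 CPM.

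Outside the epithelium keratin levels differed between classes. In fibroblast-like cells, the largest class, Krt14 stood at 7.64 CPM in KO and 18.6 CPM in WT, Krt17 at 8.31 and 18.8 CPM, Krt8 at 22.2 and 27.3 CPM and Krt18 at 21.3 and 22.7 CPM. In T cell-like cells Krt14 stood at 7.10 and 10.6 CPM and Krt8 at 23.6 and 23.4 CPM. Krt14 and Krt17 were thus higher in WT fibroblast-like cells, with counting intervals apart, while those of Krt14 in T cell-like cells overlapped. Macrophage-like cells had more Krt8, at 73.4 CPM in KO, where it was seen in 31.5% of cells and the top 5 held 24.9% of its UMIs, and at 108 CPM in WT, where the top 5 held 83.4%. Vascular endothelial-like cells reached 107 CPM of Krt8 in WT, with 59.0% of its UMIs in 5 cells, and 16.4 CPM in KO. Pericyte or smooth muscle-like cells had 70.0 CPM of Krt8 in WT, with 54.8% of its UMIs in 5 cells, and 34.5 CPM in KO. Natural killer-like cells had 68.8 CPM in WT, with 69.2% of 39 Krt8 UMIs in 5 of 77 cells, and 25.2 CPM in KO. The WT neutrophil-like cells reached 385 CPM for Krt8, with 96.4% of its UMIs in 5 of 55 cells, and the WT skeletal muscle-like cells 178 CPM for Krt17, with 89 of its 92 UMIs in 1 cell. These values of neutrophil-like and skeletal muscle-like cells rest on a few barcodes.

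The comparison of KO with WT asks whether keratin levels within a class differ between the Gpm6a-deleted and the wild-type library. In basal cells the 8 keratins together came to 8246 CPM in KO and 6034 CPM in WT. All 8 were higher in KO, though Krt5, Krt7 and Krt19 were lower in KO under at least 1 alternative. The counting intervals of Krt7 overlapped. By cluster, Krt5 was lower in KO in cluster 2 (704 against 713 CPM) and Krt7 in cluster 11 (5.12 against 5.88 CPM), with overlapping counting intervals. Krt17 was 1.66-fold and Krt15 1.55-fold higher as plain ratios of counts, giving log2 ratios of 0.73 (counting interval 0.71 to 0.75) and 0.63 (0.57 to 0.68) on the log2(CPM + 1) scale. These 2 were past 1.5-fold, and 1.62% of the 14172 genes tested in basal cells were past 1.5-fold higher in KO and 4.49% past 1.5-fold lower. Krt19 followed at 0.53, Krt18 at 0.49, Krt14 at 0.29, Krt8 at 0.17, Krt7 at 0.16 and Krt5 at 0.06, with all genes at a median of -0.05. The type I genes were thus further up than the type II genes, and the type I to type II ratio of UMIs was 6.16 in KO and 4.66 in WT.

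The Krt17 difference was present in both basal clusters, at log2 0.65 in cluster 2 and 0.76 in cluster 11. That of Krt15 was 0.42 in cluster 2 and 1.199 in cluster 11, where its level was 287 CPM in KO against 124 CPM in WT and the 5 top cells held 29.4% of the KO UMIs and 18.5% of the WT ones. Without cluster 11, Krt15 had 0.42 and was not past 1.5-fold, and it was past it in 10 of 15 alternatives. The summed level of the 8 basal markers used for naming was also higher in KO basal cells, at 10490 against 8853 CPM, with 4 of the 8 lower in KO. Acta2, smooth muscle actin, gave 8640 and 6987 CPM of these sums. The part of these markers in the keratin difference was not tested.

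**Figure D3:**
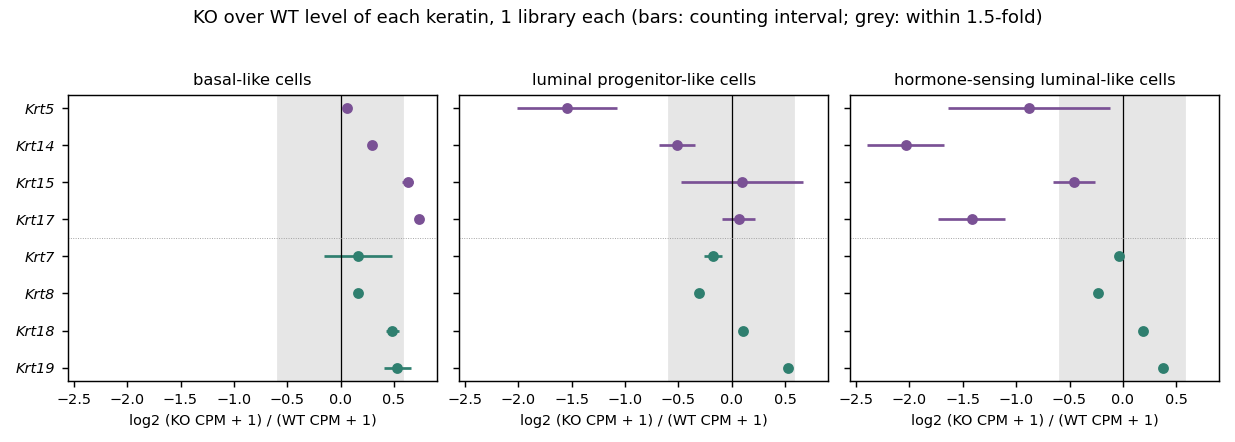
Log2 ratio of KO to WT level for each keratin in the 3 epithelial classes, 1 library each; points are ratios, bars counting intervals, purple the basal set, green the luminal set, and the grey band marks ratios within 1.5-fold. Krt17 and Krt15 lie above the band in basal cells, and Krt14, Krt17 and Krt5 lie below it in hormone-sensing cells.

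In luminal progenitor cells the luminal set stayed within 1.5-fold, in both directions. Krt19 had a log2 ratio of 0.53, Krt18 of 0.10, Krt7 of -0.17 and Krt8 of -0.31. The sum of all 8 was nearly level, at 14324 CPM in KO and 14525 CPM in WT. Krt5 alone was past 1.5-fold, lower in KO at -1.54 (-2.01 to -1.07), where 7.67% of 11362 genes tested were past 1.5-fold lower and 5.91% higher. Krt14 had -0.51, Krt17 0.06 and Krt15 0.09. The Krt5 value rests on 54 UMIs in KO and 108 in WT, most of them in 5 cells of each library. All 8 basal naming markers had UMIs in both libraries and all 8 were lower in KO, summing to 149 CPM in KO and 318 CPM in WT, and none was at 0. The part of basal RNA in the Krt5 value was not tested.

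Hormone-sensing cells showed the widest ratios among low genes and narrow ones among their own keratins. Krt19 had a log2 ratio of 0.37, Krt18 of 0.19, Krt7 of -0.04 (0.07 with TMM scaling) and Krt8 of -0.23, with Krt18 to Krt8 at 1.10 in KO and 0.825 in WT. Krt14 (-2.04, interval -2.40 to -1.67), Krt17 (-1.42, -1.73 to -1.10; 0.09 when cells were classed one by one) and Krt5 (-0.88, -1.64 to -0.12) were past 1.5-fold lower in KO, where 5.36% of 13605 genes tested were lower and 1.21% higher. Krt14, Krt17 and Krt5 all stood below the pooled non-epithelial level of the same library, which was lower in KO as well. In WT they stood above T cell-like cells, which had 10.6 CPM of Krt14, 9.48 CPM of Krt17 and 1.11 CPM of Krt5. In KO they stood below T cell-like cells (7.10, 6.41 and 1.14 CPM). The T cell-like levels rest on 19, 17 and 2 UMIs in WT and on 31, 28 and 5 in KO. Only for Krt14 in KO were the counting intervals of the 2 classes apart, and the others overlapped. The summed basal naming markers were 43.2 CPM in KO and 67.1 CPM in WT hormone-sensing cells, with all 8 lower in KO and none at 0. Krt15, above the pooled non-epithelial level, had a log2 ratio of -0.46 (-0.65 to -0.27).

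Across the 3 classes, Krt18 and Krt19 were higher and the Krt18 to Krt8 ratio was higher in KO each time, while Krt8 was higher in KO in basal cells and lower in both luminal classes. Of these directions, that of Krt19 in basal cells turned to -0.06 with all deposited barcodes. The same Krt18 to Krt8 shift was found in non-epithelial cells, from 0.754 in WT to 0.980 in KO, and in cluster 6, from 0.864 to 1.15.

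Co-detection was counted per cell after thinning to 2000 UMIs, as at least 3 UMIs summed over the basal set and at least 3 over the luminal set. Shallower cells were left out, 5 in KO and 37 in WT for basal, 5 and 9 for progenitor and 8 and 34 for hormone-sensing cells. Among the 3 mammary epithelial classes and the pooled non-epithelial cells, the share was highest in basal cells in both libraries. In KO 245 of 985 basal cells, 24.9% (exact Clopper-Pearson 95% interval 22.2 to 27.7), held both sets, and in WT 306 of 1488, 20.6% (18.5 to 22.7). The share was 4.31 percentage points higher in KO, a difference between 2 libraries with no replicate check. Most co-detecting basal cells were in cluster 2, with shares of 30.2% and 24.1%, where cluster 11 had 6.36% and 8.21%. Of named non-epithelial cells, 2 of 6325 in KO (0.0316%) and 8 of 5177 in WT (0.155%) held both sets.

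The depth of counting set these shares to a large extent. Without thinning, 90.4% of KO and 83.2% of WT basal cells held at least 3 UMIs of each set. With 1 UMI of each set in thinned cells, the shares were 71.2% and 67.4% in basal cells and 0.746% and 0.389% in T cell-like cells. By gene pairs at 1 UMI each, Krt14 with Krt8 was seen in 55.0% of KO and 53.2% of WT basal cells, Krt17 with Krt8 in 56.5% and 52.9%, Krt5 with Krt8 in 39.5% and 36.6%, and Krt14 with Krt18 in 32.0% and 23.3%. Krt14 with Krt7 was seen in 1.42% and 1.48%, so that co-detection in basal cells was chiefly of Krt8 and, less, Krt18.

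**Figure D4:**
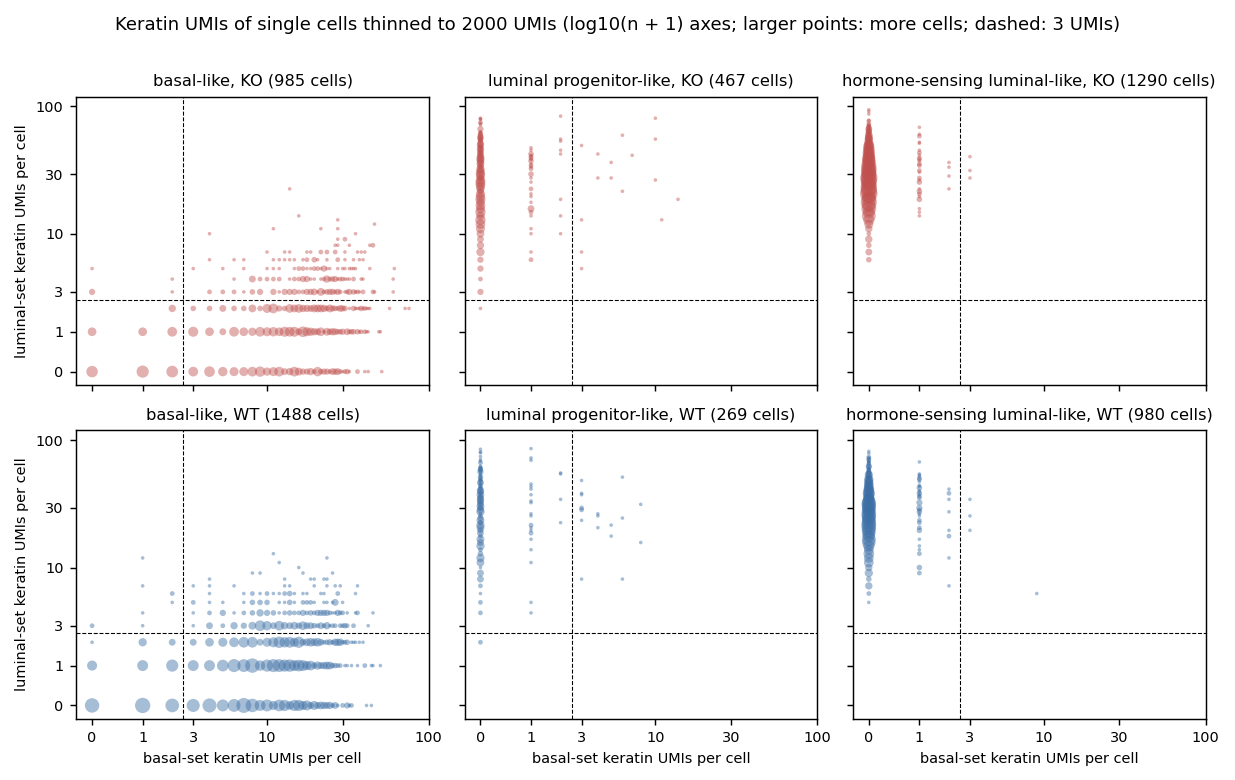
Basal-set against luminal-set keratin UMIs of single cells thinned to 2000 UMIs (log10(n + 1) axes), by class and library; point size grows with the number of cells and dashed lines mark 3 UMIs. Basal cells spread along the basal axis, many of them on either side of the 3 UMI line of the luminal set, and luminal cells form a column at 0 basal UMIs with few cells to the right.

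Cluster 2 held 231 of the 245 co-detecting basal cells in KO and 279 of the 306 in WT, and these were compared with the other cells of cluster 2 in the same library on measures outside the keratins. They had fewer UMIs (median 12354 against 13603.5 in KO, 10994 against 11121.5 in WT) and no higher a doublet score (median 0.0193 against 0.0223, and 0.0302 against 0.0306). Their level of luminal naming markers was 494 against 453 CPM in KO and 615 against 540 CPM in WT, where luminal progenitor cells without basal keratins had 16596 and 18609 CPM. Their basal naming markers were at 11877 against 10266 CPM and 9559 against 8883 CPM. Since the count itself asks for luminal UMIs, which of the 4 genes gave them is a description. Krt8 was seen in 95.7% and 96.4% of them, Krt18 in 70.6% and 58.1%, and Krt7 in 3.46% and 6.45%. Krt8 was thus present in nearly all of these cells and Krt7 absent from most.

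In luminal progenitor cells 16 of 467 in KO (3.43%, 1.97 to 5.50) and 19 of 269 in WT (7.06%, 4.31 to 10.8) held both sets. The difference between the libraries was -3.64 percentage points and turned to 1.07 with at least 10 UMIs of each set. The few co-detecting progenitor cells looked unlike co-detecting basal cells. Their basal naming markers stood at 2265 CPM in KO and 1845 CPM in WT, against 51.3 and 146 CPM in the other progenitor cells, and their median doublet score was 0.0234 against 0.0134 and 0.0767 against 0.0200. Krt17 was the basal keratin most often seen in them, in 81.3% and 73.7%, with Krt14 in 37.5% and 57.9%. Of hormone-sensing cells, 3 of 1290 in KO (0.233%) and 4 of 980 in WT (0.408%) held both sets, and all 3 of the KO cells had Krt15 and no UMI of Krt5, Krt14 or Krt17 after thinning. Cluster 6 had 1.51% in KO and 1.22% in WT.

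**Figure D5:**
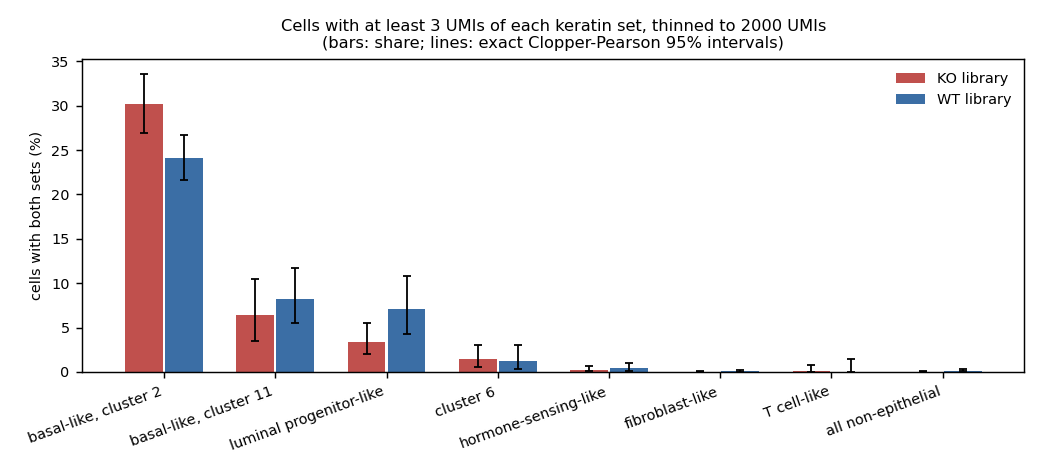
Share of cells (%) with at least 3 UMIs of each keratin set after thinning to 2000 UMIs, by class, KO in red and WT in blue, 1 library each; lines are exact Clopper-Pearson 95% intervals. Of the classes drawn, cluster 2 stands highest, at 30.2% in KO and 24.1% in WT, and non-epithelial classes lie near 0.

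Among all analysed cells with 2000 UMIs, 294 in KO and 461 in WT held both sets. Of these 83.3% in KO and 66.4% in WT were basal. Unnamed clusters held 9.52% in KO and 23.9% in WT, the latter 110 cells. The WT-only clusters 32 and 33, with low UMI counts (medians 3945 and 3484) and mixed markers, had both sets in 38 of 49 cells and 21 of 23 cells. Cluster 27, with basal and hormone-sensing markers, had both in 14 of 17 KO and 18 of 53 WT cells. Among barcodes called doublets and removed, 37 of 428 in KO (8.64%) and 48 of 387 in WT (12.4%) held both sets. The analysed cells of all classes and clusters with 2000 UMIs numbered 10102 in KO and 9735 in WT.

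The genes whose level followed each keratin most closely over 10 named classes in both libraries (20 points, 6570 genes, Pearson r of log2(CPM + 1)) are given as a description, since the points share libraries and depth. For Krt5 they were Il17b, an IL-17 family cytokine (r = 0.97), Lama1, a laminin chain (0.96), and Oxtr, the oxytocin receptor (0.96). For Krt14 they were Il17b (0.97), Moxd1 (0.96) and Col9a3, a collagen chain (0.94), and for Krt17 Moxd1 (0.96), Il17b (0.95) and Col9a3 (0.95). Krt15 had others, Trim29 (0.95), Mir205hg, the host gene of miR-205 (0.91), and Fermt1, an integrin activator (0.91). Krt8 was followed by Macc1 (0.99), the adhesion molecule Epcam (0.98) and the epithelial transcription factor Elf3 (0.98), and Krt18 by Rab25 (0.98), Myh14 (0.98) and Tom1l1 (0.98). Krt7 was followed by the ligand gene Wnt7b (0.97), Mlph (0.97) and Smim22 (0.97), and Krt19 by Wnt7b (0.98), Rab25 (0.98) and Smim22 (0.98).

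Among the members themselves Krt8 with Krt18 reached 0.99, Krt7 with Krt19 0.99, Krt5 with Krt14 0.96 and Krt14 with Krt17 0.96. Krt15 was nearer to Krt8 (0.65) than Krt5 was (0.41). The filament partners Krt5 with Krt14 and Krt8 with Krt18 therefore had like patterns over classes, as had Krt7 and Krt19.

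Of the 15 other keratins listed, 11 had at least 100 UMIs, and they divided the luminal classes further. Krt4, a keratin of stratified lining epithelia, stood at 164 CPM in KO and 216 CPM in WT hormone-sensing cells, against 1.34 and 1.64 CPM in progenitor cells. Krt6a, known from hair follicle and wounded skin, stood at 192 and 216 CPM against 0.149 and 0.939 CPM, and at 353 CPM in the WT keratinocyte-like cells. Krt78 was found in hormone-sensing cells too, at 16.3 CPM in both libraries. These 3 genes thus set hormone-sensing apart from progenitor cells in both libraries, while Krt80 ran the other way, at 58.0 and 69.2 CPM in progenitor and 9.75 and 12.6 CPM in hormone-sensing cells. Krt16 was at 67.0 and 73.1 CPM in basal, 38.7 and 65.5 CPM in progenitor and 23.9 and 12.96 CPM in hormone-sensing cells. Krt23 was at 44.7 and 48.3 CPM in basal and 30.2 and 18.8 CPM in progenitor cells. By level, Krt16 and Krt23 were thus highest in the basal class, taken as a whole, of the 3 epithelial classes in both libraries. For Krt16 in WT the counting intervals of basal and progenitor cells overlapped, so that their order is open there. Krt10 was at 36.0 and 29.5 CPM in basal cells and at 40.7 and 24.7 CPM in fibroblast-like cells. The WT keratinocyte-like cells held 66.6% of the Krt79 UMIs, 61.9% of those of Krt77 and 49.7% of those of Krt1. Krt20 was at 0.699 and 0.810 CPM in basal cells and at 1.62 and 0.949 CPM in fibroblast-like cells.

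In the KO against WT comparison, 9 of the 15 other keratins could be tested in basal cells, and 1 of them was past 1.5-fold, where 1.62% of all genes tested were higher and 4.49% lower. It was Krt79, lower in KO (0.291 against 2.08 CPM). Krt79 was lower in KO fibroblast-like cells too (0.103 against 0.759 CPM), and most of its UMIs were in the keratinocyte-like cells of the WT library, whose part in the basal value was not tested. In progenitor cells 5 could be tested. Krt10 (26.96 against 15.02 CPM) and Krt23 were past 1.5-fold higher in KO and Krt16 and Krt79 lower, where 5.91% of all genes tested were higher and 7.67% lower. In hormone-sensing cells 10 could be tested and Krt16 was past 1.5-fold higher, with a log2 ratio of 0.84, where 1.21% of all genes tested were higher.

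Genes that anchor keratin filaments to desmosomes and hemidesmosomes were mostly within 1.5-fold in basal cells. Of the 20 listed, 2 were past 1.5-fold lower in KO and none higher, where 4.49% of all genes tested were lower and 1.62% higher, and the list had a median of -0.11 against -0.05 over all genes. The lowest was Pkp2, a desmosomal plakophilin (0.349 against 1.35 CPM, -0.80), and the highest Pkp3 (80.5 against 61.5 CPM, 0.38). In progenitor cells 18 could be tested, with 6 past 1.5-fold lower, 1 higher and a median of -0.28 against -0.04, where 7.67% of all genes tested were lower and 5.91% higher. Col17a1, a hemidesmosomal collagen and 1 of the 8 basal naming markers, was lowest (2.53 against 9.86 CPM, -1.62) and Tchp, a keratin-binding protein, highest (5.81 against 2.82 CPM, 0.84). In hormone-sensing cells 18 could be tested, with 2 lower, none higher and a median of -0.26 against -0.08, where 5.36% of all genes tested were lower and 1.21% higher. Col17a1 was again lowest (0.227 against 1.58 CPM, -1.07). All 8 basal naming markers were lower in KO in both luminal classes, and their part in the Col17a1 values was not tested.

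Of 12 transcription factors known to act on keratin genes, 11 could be tested in basal cells and none was past 1.5-fold, where 1.62% of all genes tested were higher and 4.49% lower. Their extremes were Foxa1 (-0.37, at 0.815 against 1.35 CPM) and Ovol1 (0.30, 40.6 against 32.8 CPM). In progenitor cells Elf5, a regulator of the alveolar lineage, was higher in KO (171 against 106 CPM, 0.69) and Trp63, the regulator of basal identity, lower (1.49 against 4.69 CPM, -1.19), where 5.91% of all genes tested were higher and 7.67% lower. In hormone-sensing cells 2 of 12 were lower and none higher, where 5.36% of all genes tested were lower. These were Grhl3 (-0.77) and Trp63 (-0.76), and Grhl2 was highest (0.04). Trp63 is itself a basal naming marker, 1 of the 8 that were lower in KO in both luminal classes. Elf5 is 1 of the 8 luminal progenitor naming markers, of which 4 were lower in KO in progenitor cells. Of 8 other intermediate filament genes tested in basal cells, Sync was past 1.5-fold higher (2.10 against 0.733 CPM) and Des lower (-0.71), each on the same background of 1.62% higher and 4.49% lower. Vim was past 1.5-fold lower in KO in progenitor (22.8 against 35.9 CPM) and hormone-sensing cells (13.3 against 32.2 CPM), where 7.67% and 5.36% of all genes tested were lower.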

How the data were processed

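The deposited files are 1 matrix of raw UMI counts per library, with 11442 barcodes and 139757797 UMIs for KO and 12291 barcodes and 160026788 UMIs for WT, made by the authors with Cell Ranger 5.0.1 and the mm10 build per the submitters' processing notes, which also name Seurat 3.2.0. Barcodes with at least 500 genes, 1000 UMIs and at most 10% mitochondrial UMIs were kept, and Scrublet, run on each library, removed 435 and 461 as doublets (3.99% and 4.20%). The rest were clustered together with scanpy 1.11.5 (2000 variable genes without keratins, 30 components, 20 neighbours, Leiden resolution 1) and named from keratin-free markers. A cluster needed at least 3 markers and 50% of its list, and further limits on naming were set after the clusters were seen. Rebuilt names may differ from those of the study.

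Counts were summed per class and library and scaled to 1000000 UMIs of the class (CPM). A KO to WT ratio is log2 of (CPM + 1) in KO over WT, called past 1.5-fold, among genes with at least 20 UMIs in the class. No test was made, since each group has 1 library. Shares have exact Clopper-Pearson and levels exact Poisson 95% intervals. The computations were tested on simulated data. Alternatives used other barcode filters, clusterings, scalings (TMM in edgeR 4.0.16, R 4.3.3), pseudocounts and thresholds.

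The 8 keratins were always named. Further names were the 3 genes most like each keratin, other keratins with at least 100 UMIs, and the highest and lowest ratio of each list, while genes added to these were chosen after their values were seen. The members and lists were chosen with earlier results of these data known. Sequences of the type II genes are not reported here.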

Additional observations from a re-analysis of the deposited data

Results flagged for a closer look

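Krt17 pointed in opposite directions in different classes of the same libraries. Its log2 ratio of KO to WT was 0.73 in basal cells and -1.42 in hormone-sensing cells. The hormone-sensing value changed sign when cells were classed one by one, so the opposite directions depend on how cells were classed. The basal value rests on 59554 UMIs in KO and 54136 in WT, and the hormone-sensing value on 111 and 310 UMIs, of which the 5 top cells held 20.7% and 48.4%. In hormone-sensing cells Krt17 stood at 4.19 CPM in KO and 12.9 CPM in WT, below the 8.46 and 22.2 CPM of pooled non-epithelial cells in the same libraries, while T cell-like cells had 6.41 and 9.48 CPM. Counting intervals of Krt17 in T cell-like and hormone-sensing cells overlapped in both libraries. The difference between the classes was not tested, since each genotype has 1 library.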

How the results depend on the processing

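Of the 24 ratios (8 keratins in 3 classes), 16 kept their sign in all 15 alternatives. Of the 6 past 1.5-fold, Krt17 in basal, Krt5 in progenitor and Krt14 in hormone-sensing cells stayed past it in all 15. Krt17 in hormone-sensing cells reversed to 0.089 when cells were classed one by one, and 1 keratin of 3 was then past 1.5-fold there. The count of 2 in basal cells became 1 with all deposited barcodes, with called doublets kept, with means over cells of CPM per cell and with cluster 11 left out, an alternative chosen after the data were seen, as were leaving out cluster 23 and adding cluster 6. It became 5 with each library clustered alone. The count of 1 in progenitor cells became 2 with keratins kept among the clustering genes, with each library clustered alone, with TMM factors and with means over cells, and 3 with cells thinned to 2000 UMIs. TMM factors moved the ratios of abundant genes in hormone-sensing cells up by 0.10, and those of genes near 1 CPM by less.

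The co-detection difference of 4.31 percentage points in basal cells became 9.04 with thinning to 5000 UMIs and 0.54 with at least 10 UMIs of each set. That of -3.64 in progenitor cells reversed to 1.07 with at least 10 UMIs. That of -0.18 in hormone-sensing cells became -1.15 with doublets kept, -1.45 with libraries clustered alone, -1.37 with cells classed one by one, -1.24 with thinning to 5000 UMIs, -3.94 without thinning and -3.63 with at least 1 UMI of each set. For these changes the cause was not tested. No paired analysis was possible because each genotype has 1 library.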
